A study of Mus musculus with 16 samples.

Results

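The comparison set 2 libraries of mouse induced pluripotent stem cells (iPSC) that had been cultured alone and given BMP4 against 2 libraries of the iPSC part of an assembled structure that had received no BMP4. These are 4 of the 16 libraries of the series, and they were chosen by their labels, not by their values. The question was which genes separate a response to added BMP4 from the state of iPSC that grew next to trophectoderm stem cells (TSC). Each library came from a single colony or structure and was made by Smart-seq2, a full-length protocol for very small RNA inputs. The iPSC carried GFP and the TSC carried RFP, and no strain, genotype or further allele is named in the labels. In the assembled cultures both cell types were mixed, and the green part was then picked under a fluorescence microscope and separated by hand from the red part. The medium of every group, controls included, held 5% Matrigel, 12.5 ng/ml FGF4 and 500 ng/ml heparin. After 2 days the cultures were kept for 24 hours with or without BMP4, whose dose is not given in the sources used here, and were collected on day 3. Both groups therefore differ in BMP4 and in the neighbour, and separation by hand goes with the neighbour. A further 2 libraries of iPSC alone without BMP4 and 2 of the assembled iPSC part with BMP4 are given beside them as references. The labels name no separate cultures for the 2 libraries of a group, and the p-values below rest on a spread between libraries that may be technical.

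BMP4 is a secreted ligand of the TGF-beta superfamily. It binds type I and type II receptors, which phosphorylate SMAD1, SMAD5 and SMAD9, and these enter the nucleus with SMAD4 and switch on targets such as the Id genes, Msx1, Msx2 and Tbx3. In the mouse embryo the trophoblast-derived extraembryonic ectoderm is a source of BMP4 for the adjoining epiblast, where it acts upstream of Wnt3 and Nodal in the formation of the primitive streak and of primordial germ cells. T (brachyury), Mixl1, Evx1 and Fgf8 mark the streak, whereas Fgf5 and Otx2 mark the epiblast before it.

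The promoters of 2 genes are shown because they stand for both kinds of result below. T was not called between the groups, and Msx2 was called with the values as deposited but in only 5 of 15 alternatives. The 250 bases upstream of the RefSeq start site (build GRCm38.p6, gene orientation, 5′ to 3′) were searched on both strands for GGCGCC, a GC-rich SMAD element, and for CTTTGA, a TCF/LEF core. Neither motif overlaps the other in letters. Matches are in capitals. The T window lies at chr17:8434173-8434422 on the plus strand, and the Msx2 window at chr13:53472781-53473030 on the minus strand.
T: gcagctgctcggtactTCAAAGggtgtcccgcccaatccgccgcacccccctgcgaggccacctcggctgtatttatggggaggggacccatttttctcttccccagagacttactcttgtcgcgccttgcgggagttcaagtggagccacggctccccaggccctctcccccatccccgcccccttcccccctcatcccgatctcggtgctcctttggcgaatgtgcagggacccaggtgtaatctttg
Msx2: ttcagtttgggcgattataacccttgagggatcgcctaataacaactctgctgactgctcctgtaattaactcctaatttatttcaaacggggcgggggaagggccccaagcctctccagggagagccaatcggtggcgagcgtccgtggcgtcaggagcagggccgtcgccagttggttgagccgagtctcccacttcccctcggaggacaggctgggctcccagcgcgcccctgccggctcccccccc
The T window held 1 match to CTTTGA, in the reverse orientation. Of 32851 promoter windows of the same length, 9.586% held the SMAD element and 13.83% held the TCF/LEF core. No letters are capitalised in the Msx2 window, which says only that these motifs are not in this stretch.

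The values are FPKM, which divide fragments by the length of the transcript and by the size of the library, so levels can be compared between genes. Differences are given as log2(FPKM + 1) in lone iPSC with BMP4 minus the assembled part, ± SE from limma. On this scale the change of a gene with a low level is understated. The SE of a gene is pooled over all 8 groups of the series, TSC libraries included. It is not the spread of the compared libraries alone. A gene was called at an adjusted p under 0.05 among the 13406 genes that reached 1 FPKM in 2 or more libraries. Both replicate pairs were alike in spread. Pearson's r across genes was 0.967 with BMP4 and 0.965 in the assembled part, and 651 and 557 genes differed more than 2-fold between replicates. Between 10663 and 11203 genes reached 1 FPKM in each of the 4 libraries. The number of reads is unknown, so no counting error can be attached to a value.

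The labelled cell type was checked first. The 7 iPSC markers summed to 677 and 544 FPKM with BMP4 and to 445 and 391 in the assembled part, against 93.7 and 154 in the assembled TSC part. The 13 TSC markers summed to 331 and 917 FPKM in replicates 1 and 2 with BMP4, to 194 and 280 in the assembled part, and to 2797 and 2513 in the TSC part. All 13 stood more than 2-fold higher in replicate 2 than in replicate 1 of iPSC with BMP4. Elf5, a defining TSC transcription factor, was nevertheless at 0 and 0.283 FPKM there, against 0.305 and 0.393 in the assembled part and 116 and 159 in the TSC part. In the assembled part 7 of the 13 markers were below 1 FPKM in both libraries. Of the reference libraries, replicate 2 of the assembled part with BMP4 had Elf5 at 50.4 FPKM and a TSC marker sum of 918, so it stands apart. Fibroblast markers summed to 0.480 and 0.484 FPKM with BMP4 and to 1.79 and 4.31 in the assembled part, and primitive endoderm markers to 2.94 and 5.90 against 1.32 and 1.94. In libraries made from whole clumps, more cells of a type and more RNA per cell cannot be told apart.

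**Figure D1:**
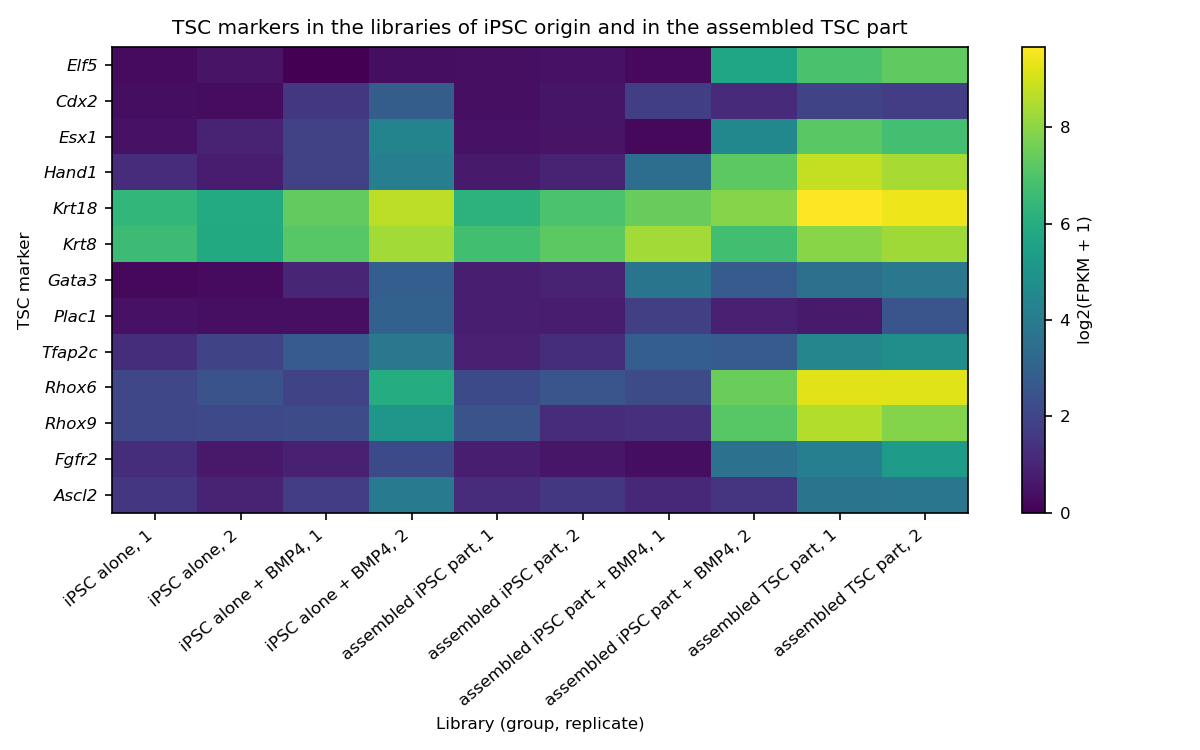
Levels of the 13 TSC markers (rows, colour on the log2(FPKM + 1) scale) in the 8 libraries of iPSC origin and both libraries of the assembled TSC part (columns). Elf5 is dark in both lone iPSC libraries with BMP4 and in both assembled iPSC libraries without it, whereas the marker sum of 917 FPKM in replicate 2 with BMP4 exceeds the 331 of replicate 1.

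Lone iPSC with BMP4 and the assembled part differed at 2311 of the 13406 genes tested, or 17.2%. Of these, 1898 (14.2% of the genes tested) were higher with BMP4 alone and 413 (3.08%) were higher in the assembled part. The direction split depends on the scaling. The median of all genes was 0.23 with the values as deposited, 0.0011 after quantile normalization and −0.06 after upper quartile rescaling. The share of calls higher with BMP4 was 82.1% as deposited, 52.0% (976 of 1876) after quantile normalization and 42.4% (823 of 1943) after upper quartile rescaling. It was 87.1% (2168 of 2489) with predicted genes left out and totals rescaled. A difference between 0 and 0.23 is therefore no larger than that of the typical gene. The libraries of both groups did not overlap at 66.1% of all genes, which is the background for the counts of genes without overlap below. Leaving out 1 library of an arm lowered the calls to 677 and 722 without replicate 1 or 2 with BMP4, and to 1205 and 462 without replicate 1 or 2 of the assembled part.

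**Figure D2:**
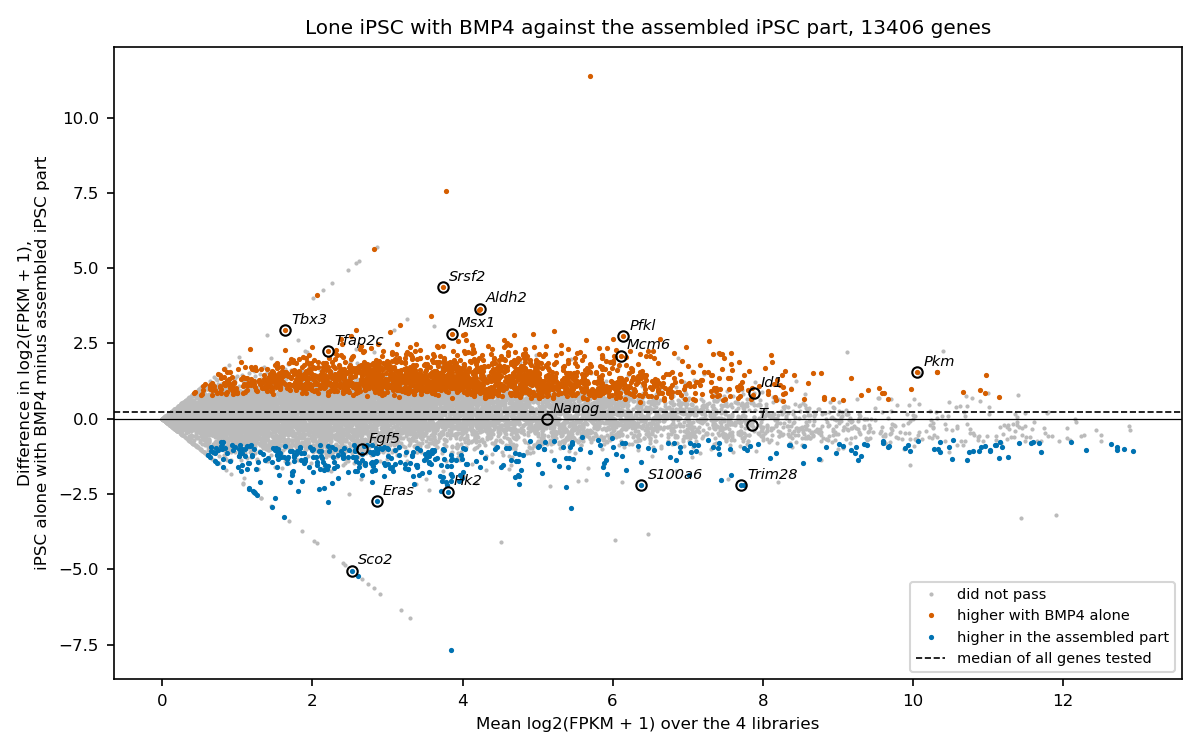
Difference between lone iPSC with BMP4 and the assembled iPSC part in log2(FPKM + 1) (y axis) against the mean log2(FPKM + 1) of the 4 libraries (x axis), 1 point per gene tested. Orange points are the 1898 genes called higher with BMP4 alone, blue points the 413 called higher in the assembled part, and the dashed line is the median of 0.23; T, Nanog and Id1 lie among the genes not called, Tbx3 and Tfap2c among those called.

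The listed genes of the primitive streak were not called between added BMP4 and the neighbour. Of 22 tested members limma called 0 in either direction (3 at an unadjusted p under 0.05, all higher with BMP4), with a median of 0.38 against 0.23 for all genes. Of all genes, 14.2% were called higher with BMP4 and 3.08% lower. With library quality weights 4 were called higher, with only the compared groups fitted 2 and with only the libraries of iPSC origin 1. The median was −0.16 without replicate 2 with BMP4. T, the brachyury transcription factor, stood at 172 and 270 FPKM with BMP4 and at 237 and 257 FPKM in the assembled part, and at 44.6 and 39.6 FPKM in iPSC alone. The groups overlapped, and both lay above iPSC alone in every library. The difference between them was −0.19 ± 0.84 (limma adjusted p = 0.915).

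Mixl1, a homeobox gene of the streak, stood at 18.6 and 70.3 FPKM with BMP4, at 22.1 and 25.7 in the assembled part and at 1.09 and 1.59 in iPSC alone. Its 2 BMP4 libraries lay on either side of the assembled ones, and the difference was 0.59 ± 1.03 (limma adjusted p = 0.751). Fgf8, a ligand of the streak, stood at 97.1 and 309 FPKM with BMP4 against 87.5 and 180 in the assembled part, and at 27.8 and 25.7 in iPSC alone. Evx1, a homeobox gene of the posterior streak, stood at 4.33 and 4.32 FPKM with BMP4 against 3.77 and 5.27 in the assembled part, and at 0.486 and 0.502 in iPSC alone. The difference of Evx1 was −0.04 ± 0.36 (limma adjusted p = 0.968), the narrowest of these estimates. A p that misses the threshold does not show that the levels were equal, and the SE of 0.84 for T and 1.03 for Mixl1 leaves room for a 2-fold difference. Both SE are pooled over all 8 groups. Among these, the assembled part with BMP4 stood at 326 and 94.8 FPKM for T and at 214 and 9.40 for Mixl1.

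Against iPSC alone, both groups share the same controls, so their values are given side by side. T differed from iPSC alone by 2.33 ± 0.84 with BMP4 (limma adjusted p = 0.588) and by 2.52 ± 0.84 in the assembled part (0.0696). Evx1 differed by 1.83 ± 0.36 (0.131) and 1.87 ± 0.36 (0.00853), and Mixl1 by 4.01 ± 1.03 (0.289) and 3.42 ± 1.03 (0.0489). The adjusted p-values of both contrasts are not on one footing. With BMP4 against iPSC alone limma called 8 genes (0.0597% of those tested, 842 at an unadjusted p under 0.05), and with the assembled part against iPSC alone it called 1585 (11.8%). Without 1 library of either arm the latter count was 6 to 739, with 6 when replicate 2 of the assembled part was left out.

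Fgf5 was lower than in iPSC alone in both groups. Fgf5, a ligand of the formative and primed epiblast, stood at 44.3 and 45.9 FPKM in iPSC alone, at 2.94 and 4.01 with BMP4 and at 13.5 and 4.55 in the assembled part. It fell by 3.38 ± 0.47 with BMP4 (limma adjusted p = 0.0181) and by 2.36 ± 0.47 in the assembled part (0.00999), and the groups differed from each other by −1.02 ± 0.47 (0.159). Otx2, a homeobox factor of the same state, stood at 13.8 and 16.6 FPKM in iPSC alone, at 4.44 and 4.74 with BMP4 and at 5.04 and 3.70 in the assembled part. Of 16 tested formative and primed genes limma called 0 between the groups (1 at an unadjusted p under 0.05, median −0.02). Of all genes, 14.2% were called higher with BMP4 and 3.08% lower. In this list 1 was called lower with BMP4 after quantile normalization and 2 higher with library quality weights.

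Nanog, a core pluripotency factor, stood at 34.3 and 33.0 FPKM with BMP4, 34.7 and 33.4 in the assembled part and 27.5 and 37.4 in iPSC alone. Pou5f1 (Oct4) stood at 299 and 175 FPKM with BMP4 against 71.5 and 80.9 in the assembled part. The libraries did not overlap, but the difference of 1.58 ± 0.65 was not called (limma adjusted p = 0.115). Of 11 core pluripotency genes 10 were not called, and the exception was Trim28, described below. Besides it, 1 was called higher with library quality weights, with only the compared groups fitted and with only the libraries of iPSC origin. Among 14 tested naive pluripotency genes Tbx3 and Zfp42 were called higher with BMP4, a share near the 14.2% of all genes. Of all genes, 3.08% were called lower. Zfp42 (Rex1), a marker of the naive state, stood at 12.9 and 11.1 FPKM against 3.65 and 2.47 (1.69 ± 0.41, limma adjusted p = 0.0151), and this call was lost after quantile normalization, with only the libraries of iPSC origin fitted, without either BMP4 library and without replicate 2 of the assembled part.

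Among BMP-SMAD targets the Id genes were not called between the groups, whereas Tbx3, Msx1, Msx2 and Gata2 were higher with BMP4. The list had 14 tested members, of which 4 were called higher with BMP4 alone and 0 lower, against 14.2% and 3.08% of all genes. Its median was 0.77, and 10 of the 14 had no overlap between groups with the BMP4 libraries higher. Of all genes, 66.1% had no overlap, counted in either direction. The other 4 listed targets, Atoh8, Dlx5, Nog and Smad9, did not reach the filter. With only the compared groups fitted, 3 targets were called higher, without Msx2 and Gata2. The count of 4 became 2 after quantile normalization, 1 after upper quartile rescaling, 3 without replicate 1 with BMP4 and 0 without replicate 2, the library with the high TSC markers.

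The Id genes, helix-loop-helix inhibitors that are direct SMAD targets, lay above iPSC alone in both groups. Id1 stood at 303 and 332 FPKM with BMP4, at 177 and 174 in the assembled part and at 44.9 and 65.2 in iPSC alone. The 2 BMP4 libraries were above the assembled ones, but the difference of 0.85 ± 0.88 was not called (limma adjusted p = 0.559). This SE is pooled over all 8 groups, among them the assembled part with BMP4, at 332 and 177 FPKM. Id2 stood at 142 and 224 FPKM against 132 and 181, with 52.3 and 34.2 in iPSC alone, and the groups overlapped. Id3 stood at 161 and 208 FPKM against 135 and 152, with 91.1 and 92.0 in iPSC alone. The differences of 0.21 ± 0.42 for Id2 and 0.35 ± 0.76 for Id3 were not called and became −0.24 and −0.10 after upper quartile rescaling. Smad7, an inhibitory SMAD, stood at 4.21 and 4.38 FPKM against 2.44 and 2.14 (0.69 ± 0.33, limma adjusted p = 0.177).

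Tbx3, a T-box repressor, stood at 5.15 and 11.2 FPKM with BMP4, at 0.201 and 0.0438 in the assembled part and at 0.240 and 0.554 in iPSC alone. The BMP4 libraries lay above all 4 others, and the difference from the assembled part was 2.95 ± 0.55 (limma adjusted p = 0.00462). Msx1, a homeobox repressor, stood at 23.2 and 60.3 FPKM with BMP4, 3.68 and 5.33 in the assembled part and 2.31 and 0.526 in iPSC alone. It differed by 2.82 ± 0.77 (limma adjusted p = 0.0245).

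Its paralog Msx2, whose promoter is printed above, stood at 6.46 and 19.6 FPKM with BMP4, 1.52 and 0.992 in the assembled part and 0.795 and 0.357 in iPSC alone (2.47 ± 0.78, limma adjusted p = 0.0462). Gata2, a zinc-finger factor of blood and trophoblast, stood at 2.86 and 11.2 FPKM against 0.397 and 0.396 (2.30 ± 0.67, limma adjusted p = 0.0325). In each of these 4 genes replicate 2 with BMP4 was the higher library. Without 1 library the adjusted p was 0.0234 to 0.0517 for Tbx3, 0.0507 to 0.181 for Msx1, 0.0644 to 0.285 for Msx2 and 0.0381 to 0.260 for Gata2. Msx1 and Msx2 also lost their calls after quantile, upper quartile and length and GC scaling. Gata2 lost its call after upper quartile and length and GC scaling, and Tbx3 kept its call under each of these scalings. The part of the TSC markers in these results was not tested. Cdx2, itself a TSC marker, stood at 1.99 and 6.16 FPKM against 0.333 and 0.478 and was not called (limma adjusted p = 0.0736).

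With BMP4 added to the assembled structure, Tbx3 stood at 7.31 and 2.61 FPKM, Msx1 at 54.1 and 6.75, Msx2 at 18.6 and 4.77, and Gata2 at 1.21 and 1.06. Replicate 2, the library with Elf5 at 50.4 FPKM, was the lower one for each of them. Even so, both libraries exceeded the assembled part without BMP4 for all 4 genes.

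**Figure D3:**
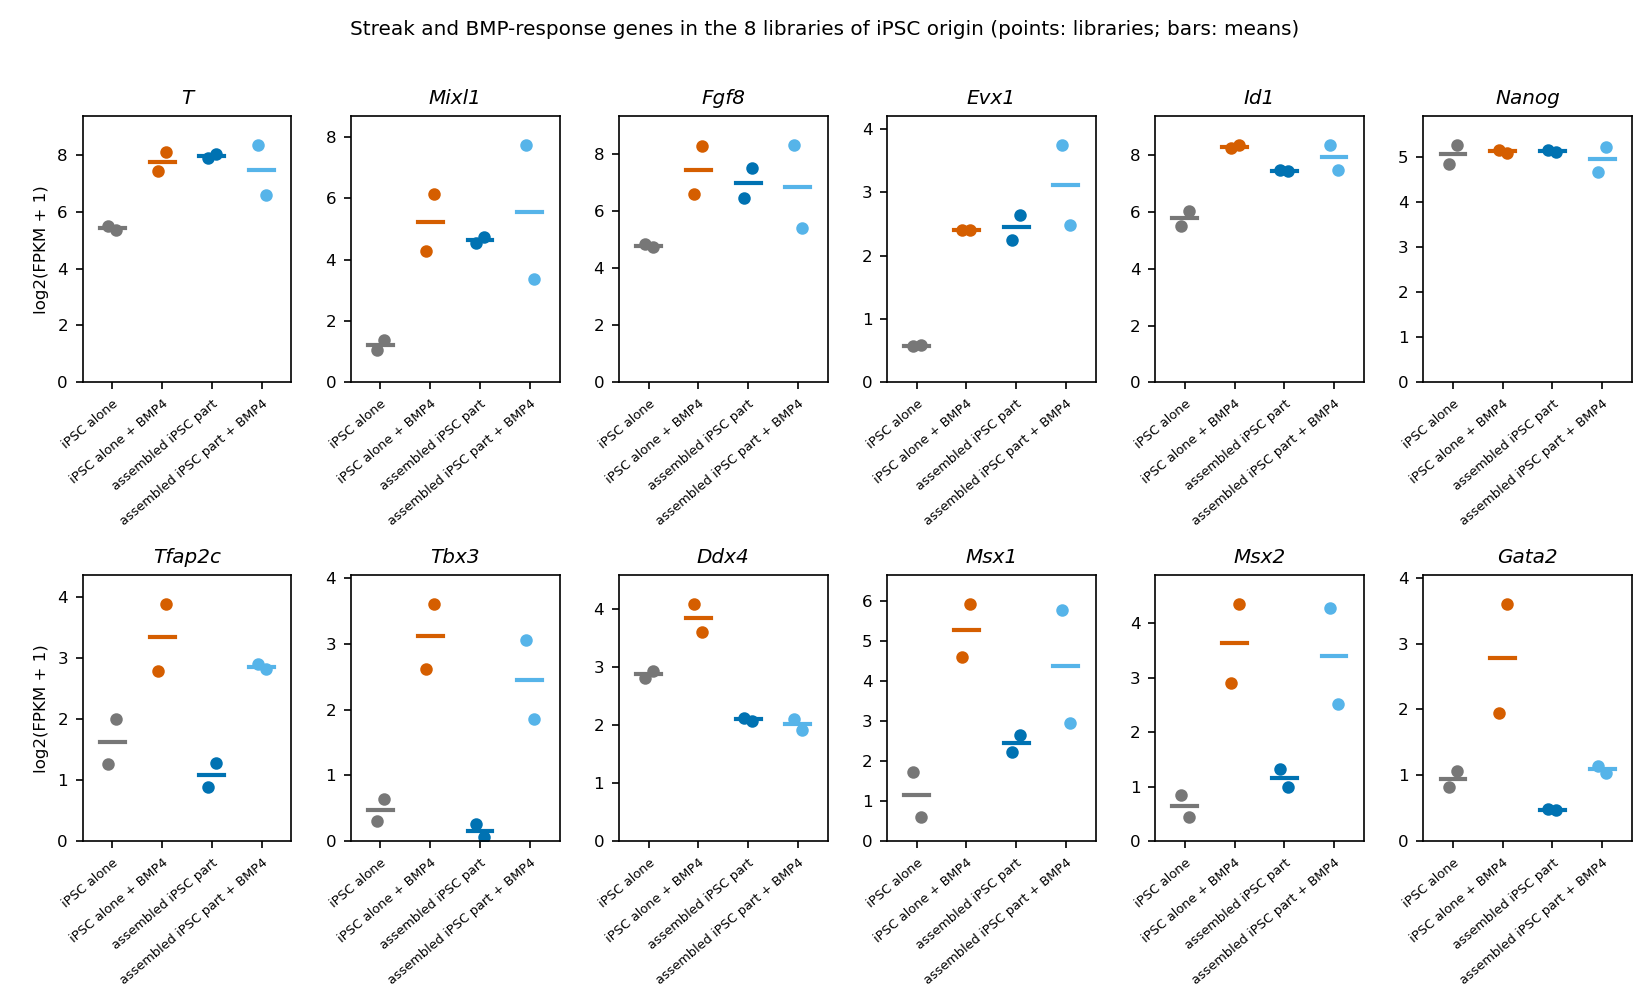
Levels of 12 streak, pluripotency and BMP-response genes as log2(FPKM + 1) in the 8 libraries of iPSC origin, 1 point per library and a bar at the mean of each group of 2. In the upper row the libraries of lone iPSC with BMP4 and of the assembled part overlap for T, Mixl1, Fgf8 and Evx1; in the lower row the BMP4 libraries lie above both assembled libraries for each gene, as for Tbx3 with 5.15 and 11.2 against 0.201 and 0.0438 FPKM.

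Most genes of BMP reception were not called. Among 15 tested ligands, receptors and antagonists 0 were called higher with BMP4 and 2 lower (14.2% and 3.08% of all genes), with a median of 0.16. The 2 were Bmpr1a, a type I receptor, at 3.57 and 4.79 FPKM against 8.43 and 10.3 (−1.003 ± 0.31, limma adjusted p = 0.0411), and Smad4, the common SMAD, at 3.62 and 4.90 against 12.4 and 11.6 (−1.31 ± 0.39, 0.0365). Both calls were lost when any 1 of the 4 libraries was left out. Bmp4 itself stood at 0.876 and 16.5 FPKM with BMP4 and at 1.55 and 1.38 in the assembled part, so the higher value rests on replicate 2 alone.

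Among germ cell genes, Tfap2c and Ddx4 kept their calls whichever 1 of the 4 libraries was left out. Of 13 tested members 3 were called higher with BMP4 (Tfap2c, Ddx4 and Alpl) and 0 lower, with a median of 0.61, against 14.2% and 3.08% of all genes. Tfap2c (AP-2 gamma) acts in primordial germ cells and in trophoblast, and it is 1 of the 13 TSC markers that were all more than 2-fold higher in replicate 2 with BMP4. It stood at 5.90 and 13.8 FPKM with BMP4, 0.842 and 1.42 in the assembled part and 1.39 and 2.99 in iPSC alone, with no overlap. Its difference was 2.26 ± 0.39 (limma adjusted p = 0.00325), and the adjusted p without 1 library was 0.0203 to 0.0384. With BMP4 added to the assembled structure it stood at 6.48 and 6.01 FPKM, and in the TSC part at 21.4 and 26.2. The part of the TSC markers in this result was not tested.

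Ddx4 (Vasa), a germ cell RNA helicase, stood at 16.1 and 11.2 FPKM with BMP4, 3.39 and 3.20 in the assembled part and 6.05 and 6.67 in iPSC alone. It differed by 1.75 ± 0.31 (limma adjusted p = 0.00375), with 0.0211 to 0.0443 without 1 library, and was lost with a pseudocount of 0.1. Unlike Tfap2c it stayed at 3.33 and 2.80 FPKM in the assembled part with BMP4. Alpl, the alkaline phosphatase of pluripotent and germ cells, stood at 14.5 and 22.1 FPKM against 4.84 and 5.52 (1.61 ± 0.42, limma adjusted p = 0.0196), a call lost when any 1 library was left out. Prdm1 (Blimp1), a repressor that founds the germ line, stood at 1.56 and 3.73 FPKM against 0.561 and 1.21 and was not called (limma adjusted p = 0.185). Dppa3 (−0.22) and Nanos3 (0.49) were not called either.

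Nodal, Wnt and FGF genes were mostly not called. The counts are to be read against 14.2% of all genes called higher with BMP4 and 3.08% lower. In the Nodal list 1 of 14 passed (median 0.36). That was Skil, a repressor of SMAD signalling, at 21.4 and 27.8 FPKM with BMP4 against 10.2 and 7.92 (1.35 ± 0.42, limma adjusted p = 0.0426). The call was kept in 6 of 15 alternatives and lost, among others, under quantile and upper quartile scaling and when any 1 of the 4 libraries was left out (adjusted p 0.100 to 0.214). Of 19 Wnt ligands and targets limma called 0 (7 at an unadjusted p under 0.05, 5 of them higher with BMP4, median 0.73). With library quality weights 6 were called higher and 1 lower, with only the compared groups fitted 4 and 0, and after quantile normalization 0 and 1. Of these 19 genes, 14 had no overlap with the BMP4 libraries higher and 3 with them lower. Of all genes, 66.1% had no overlap in either direction. Nodal stood at 75.1 and 64.6 FPKM with BMP4 against 61.5 and 51.8. Wnt3, the ligand of the early streak, stood at 16.1 and 12.5 FPKM against 6.84 and 6.12 (1.02 ± 0.42, limma adjusted p = 0.116). Sp5, a Wnt target, went the other way, at 25.7 and 13.9 FPKM against 37.0 and 45.6 (−1.08 ± 0.50, limma adjusted p = 0.158).

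In the FGF-ERK list 3 of 18 were called higher with BMP4 (Dusp6, Spry4 and Myc) and 1 lower (Dusp7), shares near the 14.2% and 3.08% of all genes. Dusp6, an ERK phosphatase and feedback inhibitor, stood at 121 and 141 FPKM with BMP4, 35.0 and 53.2 in the assembled part and 57.3 and 62.5 in iPSC alone (1.58 ± 0.43, limma adjusted p = 0.0255). Spry4, another feedback inhibitor, stood at 7.80 and 6.17 FPKM against 2.16 and 1.44 (1.52 ± 0.42, 0.0266). Dusp7, an ERK phosphatase, stood at 0.913 and 2.18 FPKM against 7.08 and 6.999 (−1.70 ± 0.36, 0.00828). The calls of Dusp6 and Spry4 were lost under quantile and upper quartile scaling and without any 1 library.

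Most of the separating genes set the assembled part apart from both lone groups. The libraries of iPSC alone enter neither side of the comparison. Their mean was nearer to the BMP4 group than to the assembled part at 1695 of the 1898 genes higher with BMP4 (89.3%) and at 344 of the 413 higher in the assembled part (83.3%), against 66.5% of all 13406 genes. After quantile normalization these shares were 90.5%, 86.4% and 67.4%. The assembled part with BMP4 was nearer to the assembled part without it at 81.4% of the genes of either direction, against 64.4% of all genes. After quantile normalization its shares were 72.6%, 81.8% and 61.1%. The 2 libraries of the assembled part with BMP4 correlated at only 0.929, with 1768 genes more than 2-fold apart. Replicate 2 of this mean is the library with Elf5 at 50.4 FPKM. Libraries of the assembled part share a neighbour, a hand separation and, if there was one, a batch that no label names, and these cannot be told apart.

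Glycolysis and hypoxia genes were called in both directions, with 7 of 29 higher with BMP4 and 2 lower (median 0.46), against 14.2% and 3.08% of all genes. The other 20 were not called. The count was 7 and 3 after quantile normalization and 3 and 4 after upper quartile rescaling, and 1 to 4 and 1 or 2 without 1 library. Pfkl, the liver-type phosphofructokinase, stood at 183 and 181 FPKM with BMP4, 198 and 215 in iPSC alone, and 30.6 and 22.4 in the assembled part. The 4 lone libraries lay far above both assembled ones. The difference was 2.75 ± 0.44 (limma adjusted p = 0.00247) and was called under all 15 alternatives.

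Pkm, pyruvate kinase, stood at 1820 and 1821 FPKM with BMP4, 2402 and 2267 in iPSC alone and 712 and 544 in the assembled part (1.55 ± 0.31, limma adjusted p = 0.00583). Pdk1, which restrains pyruvate entry into mitochondria, stood at 75.3 and 39.6 FPKM against 15.2 and 7.98 (2.21 ± 0.48, 0.0086). Ldha, Eno1, Gpi1 and Egln3 were the other 4 called higher. Hk2, the hexokinase of the first step, was opposite, at 5.70 and 4.42 FPKM with BMP4, 14.6 and 11.2 in iPSC alone and 33.4 and 29.2 in the assembled part (−2.42 ± 0.41, limma adjusted p = 0.00297, called under all 15 alternatives). Gapdh was lower with BMP4 too, at 2190 and 2370 FPKM against 4449 and 5377.

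Of 24 tested cell cycle and replication genes 7 were called higher with BMP4, 0 lower and 17 not called (median 0.77), against 14.2% and 3.08% of all genes. The 7 were Ccna2 and Mcm2 to Mcm7, the latter being the subunits of the replicative helicase. Mcm6 stood at 135 and 149 FPKM with BMP4, 82.8 and 112 in iPSC alone and 37.4 and 27.9 in the assembled part (2.10 ± 0.30, limma adjusted p = 0.00172). Ccna2, cyclin A, stood at 152 and 153 FPKM against 67.0 and 66.5, with 122 and 126 in iPSC alone (1.18 ± 0.17, limma adjusted p = 0.00174). Both were called under all 15 alternatives. The list count was 3 and 0 after quantile normalization, 4 and 1 after upper quartile rescaling and 2 to 4 without 1 library. Pcna, the replication clamp, did not follow, at 334 and 392 FPKM against 483 and 577, and was not called (−0.54 ± 0.19, limma adjusted p = 0.0673). Chaf1a, a chromatin assembly factor that works at the replication fork, stood at 29.6 and 21.8 FPKM against 2.94 and 1.35 (3.12 ± 0.36, 0.0012).

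Chaperones gave 7 of 15 higher with BMP4 and 0 lower (median 0.42), against 14.2% and 3.08% of all genes. The 7 became 3 after quantile normalization, 1 after upper quartile rescaling, where the median was −0.02, and 0 to 2 without 1 library, with 0 when replicate 2 of the assembled part was left out. Hsp90ab1, a constitutive HSP90, stood at 2345 and 2052 FPKM with BMP4, 2080 and 2057 in iPSC alone and 872 and 630 in the assembled part (1.56 ± 0.30, limma adjusted p = 0.00553). Hspb1 was different, at 318 and 925 FPKM with BMP4 against 185 and 168 in iPSC alone and 154 and 210 in the assembled part, high in replicate 2 with BMP4. Epithelial genes gave 4 of 21 higher (Epcam, Krt18, Ocln and Pkp2), a share near the 14.2% of all genes. Krt18, a keratin and TSC marker, stood at 163 and 415 FPKM against 75.7 and 119 (1.44 ± 0.44, limma adjusted p = 0.0409). No epithelial gene was called higher after upper quartile rescaling or without replicate 2 of either group.

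Ribosomal protein genes leaned the other way. Of 31, 0 were called higher with BMP4 and 9 lower, with a median of −0.55, against 14.2% and 3.08% of all genes. Rps4x stood at 1664 and 1721 FPKM with BMP4, 1747 and 1775 in iPSC alone and 2891 and 3545 in the assembled part (−0.92 ± 0.22, limma adjusted p = 0.0153). Rpl23 stood at 1423 and 1451 FPKM against 2784 and 3284, with 1669 and 1422 in iPSC alone (−1.07 ± 0.25, 0.0129). The size of the shift follows the scaling, whereas the list median was negative in every alternative. There were 3 higher and 5 lower (median −0.04) after quantile normalization, 0 and 18 (median −1.003) after upper quartile rescaling, and 0 to 3 lower without 1 library. These are short and abundant transcripts, and the 10 most abundant genes took 6.76% and 7.50% of the FPKM total with BMP4 and 9.77% and 13.3% in the assembled part. The part of that concentration in the result was not tested.

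Oxidative phosphorylation genes were mixed, with 5 of 26 higher with BMP4 and 2 lower (median −0.25), against 14.2% and 3.08% of all genes. The counts were 1 and 10 after upper quartile rescaling, 6 and 5 with predicted names left out, and 0 to 3 higher and 1 lower without 1 library. Ndufa4, at 933 and 1135 FPKM against 1867 and 2098, was lower and Ndufv1, a complex I subunit, at 108 and 105 against 49.9 and 39.6, was higher. Of 18 matrix and integrin genes 3 were lower (Lama5, Itga6 and Lamc1) and 0 higher, against 3.08% and 14.2% of all genes, and without 1 library 0 or 1 was lower. Itga6 and Lamc1 lost their calls whichever of the 4 libraries was left out. Lama5, a basement membrane laminin chain, stood at 8.54 and 5.81 FPKM with BMP4, 19.01 and 11.4 in iPSC alone and 22.9 and 23.1 in the assembled part (−1.58 ± 0.30, limma adjusted p = 0.00543). Itga6, a laminin receptor chain, stood at 5.78 and 8.38 FPKM against 14.1 and 18.2 (−1.09 ± 0.30, 0.0276). Among 23 cholesterol and fatty acid genes 2 were higher (Acly, Sqle) and 2 lower (Fasn, Nsdhl), with a median of 0.000090, against 14.2% and 3.08% of all genes.

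**Figure D4:**
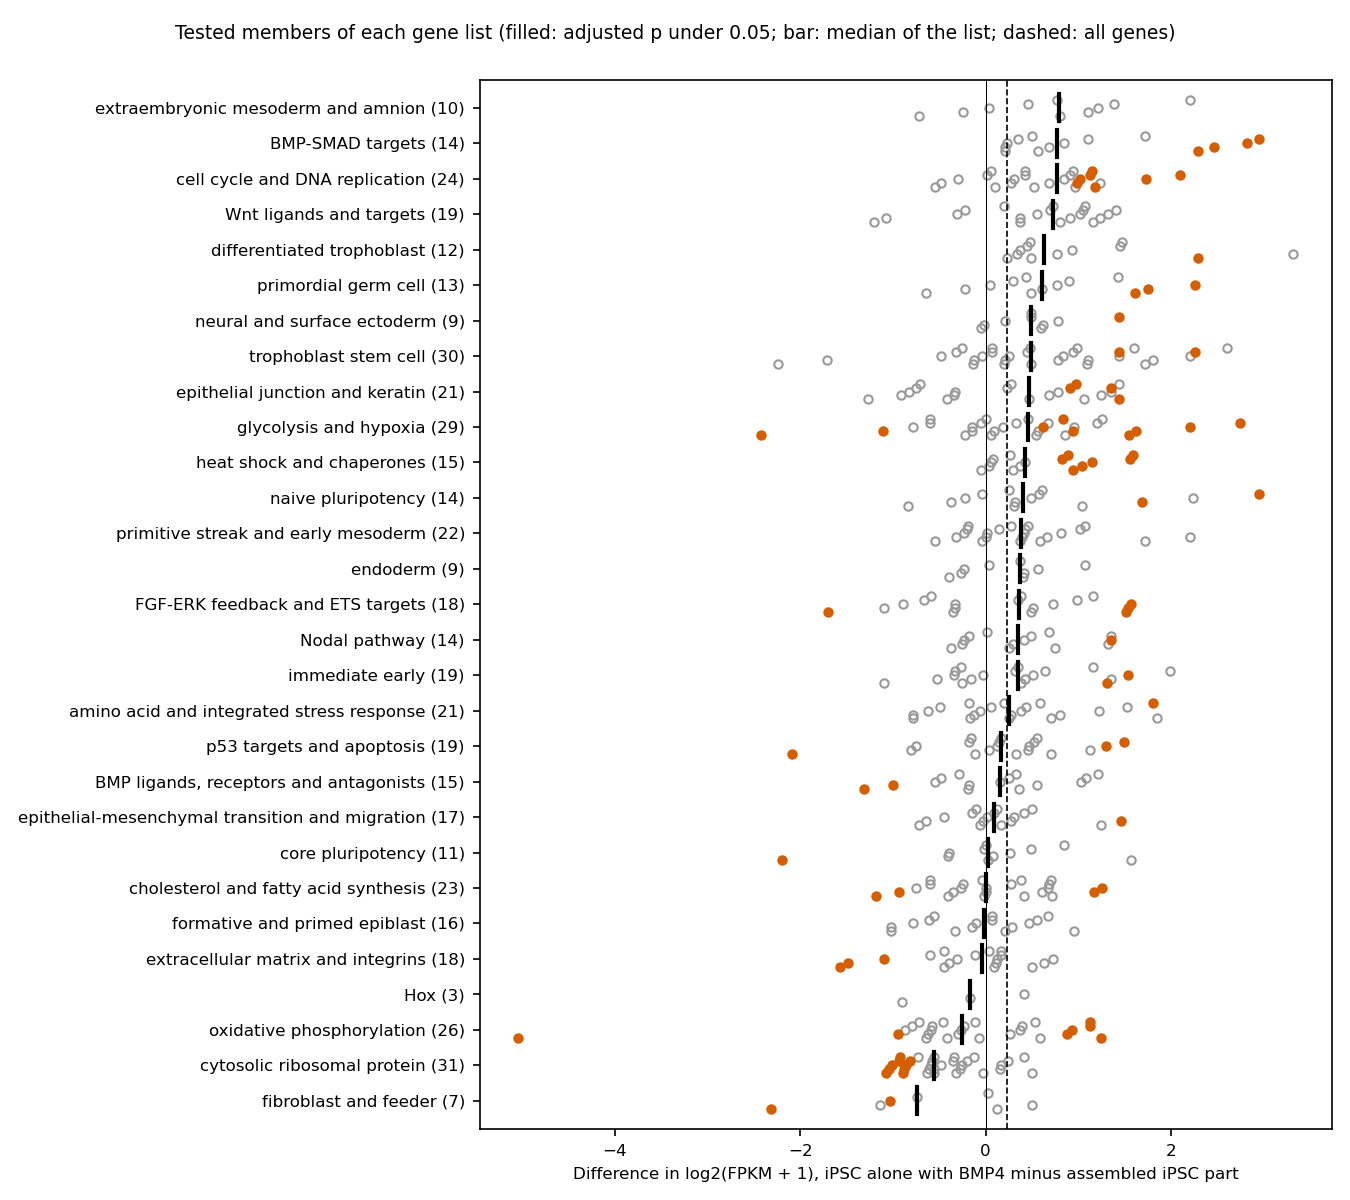
Difference in log2(FPKM + 1) between lone iPSC with BMP4 and the assembled part (x axis) for the tested members of each gene list (rows, number tested in brackets); filled points were called, black bars are list medians and the dashed line is the median of all genes, 0.23. With values as deposited, the lists furthest right are extraembryonic mesoderm and amnion (median 0.79), BMP-SMAD targets (0.77), cell cycle (0.77) and Wnt genes (0.73). Fibroblast and feeder genes (−0.74) and ribosomal protein genes (−0.55) lie furthest left.

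Among single genes, Trim28, a corepressor that keeps retroelements silent in pluripotent cells, stood at 90.6 and 104 FPKM with BMP4, 144 and 125 in iPSC alone and 464 and 432 in the assembled part (−2.20 ± 0.24, limma adjusted p = 0.000923). S100a6, a calcium-binding protein, stood at 33.4 and 43.0 FPKM with BMP4, 42.2 and 19.03 in iPSC alone and 165 and 194 in the assembled part (−2.21 ± 0.39, 0.00375). In both genes the assembled libraries with BMP4 were high as well, at 312 and 293 FPKM for Trim28 and 239 and 203 for S100a6. Prrc2a followed the same order, at 5.35 and 5.56 FPKM against 34.1 and 24.1 (−2.20 ± 0.30, 0.00165). All 3 calls held under all 15 alternatives. In the assembled TSC part S100a6 stood at 1047 and 888 FPKM, Trim28 at 242 and 391, and Prrc2a at 21.0 and 30.8. The part of TSC in these differences was not tested.

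Sco2, a copper chaperone of cytochrome oxidase, was listed at or next to 0 in all 4 lone libraries and at 26.1 and 39.1 FPKM in the assembled part, 31.0 and 26.7 with BMP4 added. Its exons overlap those of Ncaph2 and Tymp in the GENCODE annotation. Ncaph2 stood at 60.7 and 68.8 FPKM with BMP4 and 33.6 and 21.5 in the assembled part, and how reads shared by these genes were divided is not given in the sources used here. Of the 112 genes picked out by name rules or lists, 35 had exons overlapping another annotated gene, among them Srsf2, Tbx3, Eras, Ccna2, Mcm7, Pkm, Pou5f1 and Evx1.

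On the side of the lone cells, Aldh2, an aldehyde dehydrogenase, stood at 63.4 and 68.2 FPKM with BMP4, 24.7 and 21.7 in iPSC alone and 4.45 and 4.15 in the assembled part (3.65 ± 0.36, limma adjusted p = 0.000679). The libraries of both lone groups did not overlap either, with a difference of 1.47 that was not called. Sephs2, which makes selenophosphate, stood at 92.7 and 70.5 FPKM against 13.2 and 8.36, with 75.8 and 82.7 in iPSC alone (2.83 ± 0.35, 0.00141). Usf1, a helix-loop-helix activator, stood at 99.6 and 103 FPKM against 13.6 and 11.6 (2.92 ± 0.47, 0.00233), with 51.2 and 30.5 in the assembled part with BMP4.

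**Figure D5:**
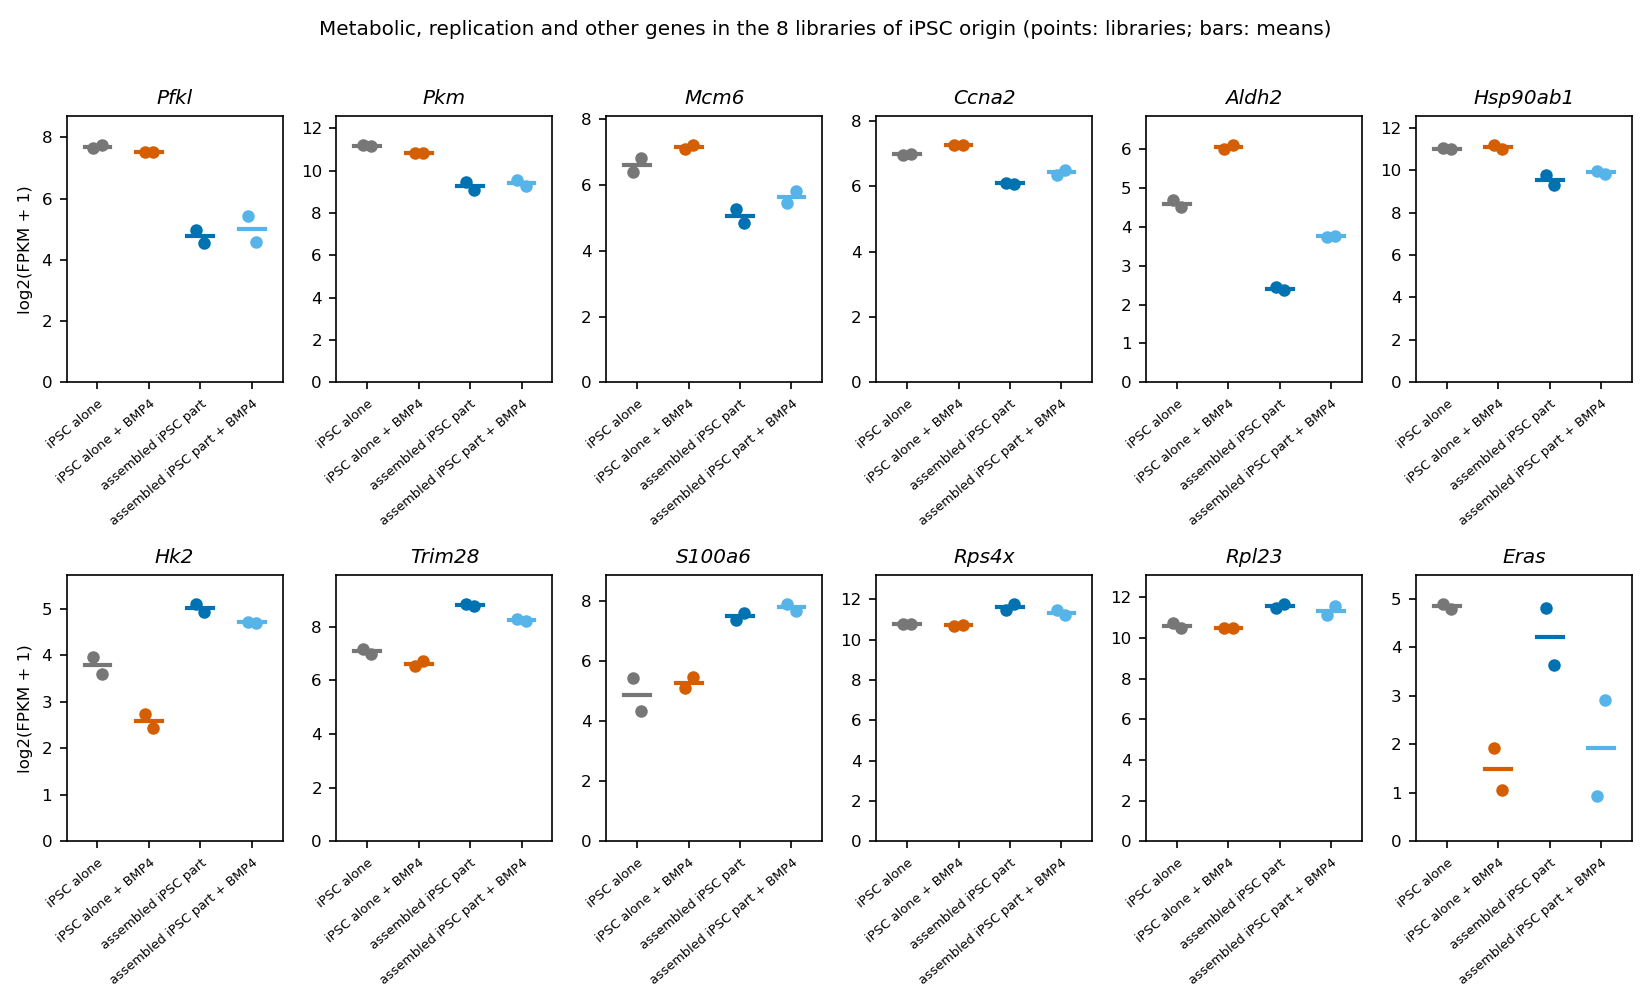
Levels of 12 metabolic, replication, ribosomal and other genes as log2(FPKM + 1) in the 8 libraries of iPSC origin, 1 point per library and a bar at the mean of each group of 2. Pfkl, Pkm, Mcm6, Ccna2 and Hsp90ab1 are high in the 4 lone libraries and Hk2, Trim28 and S100a6 in the 4 assembled ones, whereas Eras is low in both lone libraries with BMP4 (2.78 and 1.09 FPKM) and in both assembled ones with BMP4 (0.909 and 6.53).

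At a minority of the called genes iPSC alone lay nearer to the assembled part instead. There were 203 among the 1898 higher with BMP4 and 69 among the 413 lower. The genes named from this minority, here and in the paragraphs that open with Eif2ak2 and Eras, were taken by size after their values had been seen. Srsf2, a splicing factor, stood at 65.2 and 54.3 FPKM with BMP4 and at 1.54 to 5.24 in the other 6 libraries of iPSC origin, and it differed by 4.37 ± 0.41 (limma adjusted p = 0.000637). That is also 1 of the 8 genes called between BMP4 and iPSC alone (3.996 ± 0.41, 0.00118). It was not high with BMP4 in the assembled part (1.81 and 5.24), and its exons overlap Mfsd11 and Mettl23. Evx1os, a transcript antisense to Evx1, stood at 15.3 and 23.5 FPKM against 4.32 and 3.85, with 1.89 and 2.61 in iPSC alone (1.98 ± 0.38, 0.00559). Reads of Evx1 and its antisense partner cannot be told apart without a stated strand.

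Eif2ak2 (PKR), the kinase that senses double-stranded RNA, stood at 7.09 and 13.7 FPKM with BMP4, 1.42 and 1.08 in the assembled part and 2.91 and 3.69 in iPSC alone (2.28 ± 0.34, limma adjusted p = 0.00197). Its difference between BMP4 and iPSC alone was not called (limma adjusted p = 0.270). Pim3, a serine kinase, stood at 33.1 and 31.4 FPKM against 8.30 and 7.37, with 15.5 and 16.7 in iPSC alone (1.91 ± 0.23, 0.00121). For Pim3 iPSC alone lay about midway, 0.96 below BMP4 (limma adjusted p = 0.242) and 0.95 above the assembled part (0.0220). Both differences between BMP4 and the assembled part were called under all 15 alternatives.

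Eras, an embryonic Ras of pluripotent cells, was the counterpart that was low with BMP4. It stood at 2.78 and 1.09 FPKM with BMP4, 26.9 and 11.4 in the assembled part and 28.9 and 26.6 in iPSC alone (−2.73 ± 0.59, limma adjusted p = 0.00853). The BMP4 libraries lay below all 4 libraries without BMP4, and with BMP4 the assembled part stood at 0.909 and 6.53. Car3, a carbonic anhydrase, was also lower in every library with BMP4 than in those without it. Unlike Eras, it was higher in the assembled part than in iPSC alone. It stood at 3.98 and 3.69 FPKM with BMP4, 17.9 and 24.0 in the assembled part and 10.7 and 9.31 in iPSC alone. In the assembled part with BMP4 it stood at 7.38 and 2.15 (main difference −2.17 ± 0.47, limma adjusted p = 0.00839). Eda2r, a p53-induced receptor of the TNF family, stood at 3.97 and 1.26 FPKM against 13.3 and 13.1 (−2.08 ± 0.57, 0.0248). Unlike Eras and Car3, Eda2r stood at 9.91 and 11.3 FPKM in the assembled part with BMP4, near its level of 9.62 and 9.82 in iPSC alone. Eras, Car3 and Eda2r were not called between BMP4 and iPSC alone (limma adjusted p = 0.0883, 0.663 and 0.533). Their calls against the assembled part were kept in 13, 11 and 11 of 15 alternatives. Each was lost when some single libraries were left out.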

How the data were processed

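RNA from single colonies or parts was measured by Smart-seq2 in 16 mouse libraries, 2 for each of 8 groups. The deposited file is 1 table of FPKM, computed by the authors, holding 31663 symbols in 16 columns. CASAVA and TopHat2, and the builds mm9 and hg19, are listed per the submitters' processing notes, without versions or roles. Which program made the FPKM, with what annotation and strand setting, is not given in the sources used here. Of the entries, 12 share a symbol and 26 symbols look like spreadsheet dates.

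Genes that reached 1 FPKM in 2 or more libraries were kept. Unscaled log2(FPKM + 1) values entered a model with a mean for each of the 8 groups (limma 3.58.1 under R 4.3.3, functions lmFit, contrasts.fit and eBayes with trend), which left 8 residual degrees of freedom. Tests were two-sided with Benjamini-Hochberg adjustment over all genes tested and a threshold of 0.05. The fit was tested on simulated data. The members, the 29 gene lists and the tests were chosen with earlier results of these data known. Lists are described by counts and medians only.

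Genes named were up to 12 per direction with the largest difference among those called, whose libraries did not overlap and whose higher group averaged 5 FPKM or more, without predicted, microRNA, snoRNA and pseudogene names. Up to 3 called members per list and a fixed set of BMP, streak, pluripotency and trophoblast genes were added. Other genes with values are members of a list, or called genes with iPSC alone nearer to the assembled part. They were picked as examples after their values were seen. Alternatives tried were quantile normalization, upper quartile rescaling, predicted names left out, a pseudocount of 0.1, no filter, library quality weights, a replicate block, fits of fewer groups, a 2-fold threshold and leaving out each library. A correction for transcript length and GC content (GENCODE vM21, by symbol) was added after seeing the data. Promoters came from RefSeq. Figures used Python 3.11.15 and matplotlib 3.10.9.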

Additional observations from a re-analysis of the deposited data

How the results depend on the processing

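The 2311 calls became 2207 with a pseudocount of 0.1, 1965 without a filter, 2012 after correction for length and GC content (chosen after seeing the data), 4465 with library quality weights and 462 to 1205 when 1 library was left out, where the lone library of an arm is assumed to vary like the other groups. The 8 calls between BMP4 and iPSC alone became 3 with a pseudocount of 0.1, 3 with only the groups compared, 3 with only the libraries of iPSC origin, 79 without a filter, 132 with library quality weights and 3 to 6 without 1 library. The 1585 calls between the assembled part and iPSC alone became 3985 with library quality weights and 6 to 739 without 1 library (6 without replicate 2 of the assembled part, 110 and 158 without replicate 2 or 1 of iPSC alone). No label says that a replicate number marks a shared structure or day; deviations of same-numbered libraries correlated at 0.119 between the compared groups and at −0.031 and −0.077 with iPSC alone. A replicate block gave 2160, 6 and 1409 calls, and of the named genes it dropped the calls of Msx2, Skil and Rpph1. Among 82 named genes called, a scaling changed the call of 14 (quantile), 17 (upper quartile) and 10 (length and GC), and leaving out 1 library that of 29 to 55. Differences near 0 that were not called changed sign. Upper quartile rescaling gave −0.24 for Id2, −0.10 for Id3, −0.14 for Nodal and −0.30 for Otx2, quantile normalization −0.04 for Nodal and −0.23 for Otx2, and the length and GC correction −0.00908 for Id2, −0.0625 for Nodal and −0.21 for Otx2. With predicted names left out Evx1 was 0.0749 and Nanog 0.12. Without 1 library the differences ranged from −0.39 to 2.83 for Bmp4, from −0.24 to 0.16 for Evx1, from −0.37 to 1.29 for Fgf8, from −0.12 to 0.53 for Id2, from −0.34 to 1.52 for Mixl1, from −0.042 to 0.012 for Nanog, from −0.11 to 0.25 for Otx2 and from −0.52 to 0.13 for T. The cause of these changes was not tested. Depth is unknown, so what depth limits could not be measured; values under 1 FPKM carry no known error.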

Other observations

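The remaining gene lists held few calls, to be read against 14.2% of all genes called higher with BMP4 and 3.08% lower. Of 19 p53 and apoptosis genes 2 were higher with BMP4 and 1 lower (median 0.16). Bax, a pore-forming apoptosis effector, stood at 468 and 451 FPKM with BMP4 and 409 and 409 in iPSC alone against 184 and 187 in the assembled part (1.30 ± 0.28, limma adjusted p = 0.00788), and Aen, a p53-induced nuclease, at 53.8 and 36.5 against 17.0 and 13.4 (1.497 ± 0.38, 0.0177). The lower one was Eda2r, and Cdkn1a (0.04) and Mdm2 (0.45), a pair of widely used p53 targets, were not called. In the integrated stress response list 1 of 21 passed (median 0.25). That was Sesn2, a leucine sensor, at 29.3 and 20.6 FPKM with BMP4, 29.9 and 21.9 in iPSC alone and 5.85 and 6.75 in the assembled part (1.81 ± 0.33, limma adjusted p = 0.00412), while Atf4 (−0.18) and Asns (−0.17) were not called. Of 19 immediate early genes Myc and Klf10 were higher (median 0.35). Myc stood at 53.3 and 38.01 FPKM against 15.96 and 13.9 (1.54 ± 0.32, limma adjusted p = 0.00705). Leaving out 1 library ended the calls of Bax, Aen and Myc in some fits and that of Klf10 in every one of the 4.

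Of 17 genes of epithelial-mesenchymal transition 1 was called (median 0.09). This was Mmp14, a membrane-bound metalloprotease, at 7.005 and 6.76 FPKM with BMP4 against 2.55 and 1.31 (1.46 ± 0.33, limma adjusted p = 0.0106). Snai1 (0.28) and Cdh2 (0.02) were not called. Of 7 fibroblast and feeder genes 0 were higher and 2 lower (median −0.74). S100a4 was listed at 0 in both BMP4 libraries and stood at 3.01 and 5.19 FPKM in the assembled part, and Thy1 stood at 0.233 and 0.116 against 1.03 and 1.82, whereas the collagens Col1a1 and Col1a2 were at or below 0.301 FPKM in all 4 libraries. The part of feeder cells in these differences was not tested.

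Trophoblast lists were raised in places by replicate 2 with BMP4. Of 30 trophoblast stem cell genes 2 were called higher (Tfap2c and Krt18, median 0.49), and of 12 differentiated trophoblast genes 1 (Gata2, median 0.63). Rhox6, a homeobox gene of trophoblast, stood at 2.91 and 61.6 FPKM with BMP4, against 3.52 and 4.85 in the assembled part. Of 10 extraembryonic mesoderm and amnion genes limma called 0 (2 at an unadjusted p under 0.05, median 0.79, or 0.11 without replicate 2 with BMP4). Hand1, a factor of both trophoblast and extraembryonic mesoderm, stood at 2.78 and 16.8 FPKM against 0.604 and 0.949 (2.21 ± 0.91, limma adjusted p = 0.116). Of 9 endoderm genes limma called 0 (1 at an unadjusted p under 0.05), of 9 ectoderm genes 1 (Krt18), and of 3 tested Hox genes 0 (1 at an unadjusted p under 0.05, Hoxb1, at 2.75 and 6.44 FPKM against 5.97 and 12.9).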
